A study of Mus musculus with 6 samples.

Results

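The microRNAs miR-532, miR-188, miR-362, miR-501 and miR-500 are cut from 5 hairpins that lie in 1 stretch inside the gene Clcn5 on the mouse X chromosome. Every array probe whose design description names one of them (mmu-miR-532, mmu-miR-188, mmu-miR-362, mmu-miR-501 or mmu-miR-500) was taken, which gave 5 probes, 1 for each microRNA, of 334 mouse microRNA probes in all, and all 5 were among the 294 probes tested. They were measured in day 7 embryoid bodies, the aggregates in which mouse embryonic stem cells begin to differentiate. Per the labels, the stem cells are of strain 129S7/SvEv Brd-Hprt b-m2 and carried human BRCA1, a DNA repair protein, in 3 forms: wild type (WT), the missense change M1652I (MI) or the missense change R1699Q (RQ), with 2 arrays per group. Each array had the group's own RNA in the Cy3 channel and RNA of wild-type embryoid bodies, the reference, in the Cy5 channel, with no dye swap. The labels call the 2 arrays of a group biological replicates but do not say whether they came from separate cultures or from separate stem cell clones, so p-values measure only the spread between these arrays, which may be technical. The comparisons ask how far each microRNA of the cluster differed between the 3 forms of BRCA1.

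A microRNA inside a gene is usually transcribed with its host or from a start of its own nearby, and Drosha then cuts the hairpin out of the long transcript and Dicer trims it to a duplex. One strand or both of the duplex enter an Argonaute protein, and bases 2 to 8, the seed, pair with target messages and lower their output. Hairpins of 1 transcript can still end at different mature levels, because each is cut, trimmed and degraded on its own. The host, Clcn5, encodes a chloride/proton exchanger of endosomes that is mutated in Dent disease, a disorder of the kidney tubule. miR-188 is known for its part in the switch of marrow stromal cells between bone and fat, and miR-501 for repression of an AMPA receptor subunit in neurons. These roles are given without the arm they belong to, and only the 5p arm of each was measured here.

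The sequences are shown because they settle which arm of each hairpin was measured and which seeds the members share. They are those of RefSeq (GRCm38.p6), where 4 of the 5 probes matched a mature entry, and the seed is in capitals. The probes of miR-188, miR-362 and miR-501 match the 5p arm and that of miR-500 matches the 3p arm.
miR-188-5p: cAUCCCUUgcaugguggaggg
miR-362-5p: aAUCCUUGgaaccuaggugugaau
miR-501-5p: aAUCCUUUgucccugggugaaa
miR-500-3p: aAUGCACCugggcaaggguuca
For miR-532 the RefSeq hairpin is printed, 5′ to 3′, with the 22 bases that the probe matches in capitals; they start at base 21 of 96, toward the 5′ end.
miR-532 hairpin: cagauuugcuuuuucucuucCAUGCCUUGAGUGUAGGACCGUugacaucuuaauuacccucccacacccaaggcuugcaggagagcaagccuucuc

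The 4 measured arms with a mature entry have 4 different seeds. Seeds are shared with arms that have no probe among those listed. The unmeasured 5p arm of miR-500 has the seed of miR-362-5p, and the unmeasured 3p arm of miR-501 has that of miR-500-3p.
miR-500-5p: aAUCCUUGcuaucugggugcuuagu
miR-501-3p: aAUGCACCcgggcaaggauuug
From miR-500-3p to miR-501-3p there are 4 substitutions, U9C, G18A, C21U and A22G, counted from the 5′ end. The miR-500 probe starts its match at base 2 of the mature sequence and runs 1 base past its end, as its own sequence shows (the part complementary to the hairpin in capitals; the last 33 bases are the stem that the array's probes share).
miR-500 probe: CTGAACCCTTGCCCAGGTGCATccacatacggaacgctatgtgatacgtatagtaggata
Counted as edits over the best-fitting stretch, the probe's target lies 5 from miR-501-3p. The target of the miR-188 probe lies 4 from miR-546, which has a tested probe of its own, and that of the miR-362 probe lies 4 from miR-3075-3p, while for miR-501 and miR-532 the nearest other mature microRNAs lie at 6. How far such neighbours add to the members' signals was not tested.

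All 5 hairpins are on the minus strand of chromosome X, inside the span of Clcn5. In the order of transcription they are Mir532 (chrX:7248402-7248497), Mir188 (chrX:7247989-7248056), Mir362 (chrX:7241982-7242046), Mir501 (chrX:7241243-7241351) and Mir500 (chrX:7237683-7237774), within 10815 bases. The gaps between neighbours are 345, 5942, 630 and 3468 bases. The order matters for what follows, because the members that shared a pattern across the arrays are not all neighbours: miR-188 lies between miR-532 and the other two.

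**Figure D1:**
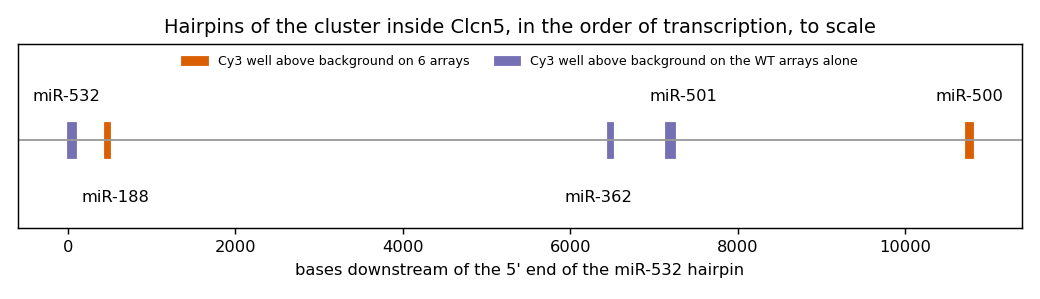
Positions of the 5 hairpins along the transcript, in bases downstream of the 5′ end of the miR-532 hairpin and to scale; orange marks members well above background in Cy3 on all 6 arrays and violet those above it on the WT arrays alone. The violet hairpins are miR-532, miR-362 and miR-501, and miR-188 lies 345 bases from miR-532.

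Between 241 and 255 of the 334 probes were well above background in Cy3 on an array, and between 262 and 271 in Cy5, where a probe counts as above background when over 0.5 of its 4 spots carry the scanner software's mark. The number of arrays limits the precision. Pluripotent stem cell microRNAs were detected: 10 of 12 listed probes were above background in Cy3 on all 6 arrays. All arrays lay on 1 slide and were read in 1 scan, with WT in 1 row of arrays and both mutants in another, so slide row and group cannot be told apart in comparisons with WT. Net signal means the spot's mean minus its local background, in scanner intensity units. The net Cy3 signal of the 77 negative control spots had a median of 34.3 and 28.2 on the WT arrays, 37.8 and 42.5 on the MI arrays and 54 and 61 on the RQ arrays.

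Of the 5 members, 3 were well above background in Cy3 on the WT arrays alone. These were miR-362, miR-501 and miR-532, and on each of them over 0.5 of the spots passed on both WT arrays and at most 1 of 4 spots on any MI or RQ array. Over all 334 probes, 5 showed that pattern (1.5%), and the other two were miR-146b and miR-189; the reverse, Cy3 above background on the 4 MI and RQ arrays and on 0 of 2 WT arrays, was found for 1 probe (0.299%). This pattern was looked for after the values had been seen, and no test is given for it. With the software's other mark, positive and significant, 9 probes had it (2.69%), again with these 3 members among them. With the 90th percentile of the array's own negative controls as the limit, 4 probes had it (1.2%), 3 of them these members, but with the 75th percentile 3 probes had it (0.898%), and miR-532 was the 1 member left. In Cy5, the common reference, all 5 members were above background on all 6 arrays, so this pattern of marks was not seen in that channel. The Cy5 signals of these 3 members above the negative control median are given below, and some of them also differed between WT and the mutants.

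For miR-362, net Cy3 was 78.3 and 55 on the WT arrays, 41.6 and 50.2 on the MI arrays, and 66.3 and 73.5 on the RQ arrays. Both MI arrays were below both WT arrays, while the RQ arrays lay between the WT values before any correction for the higher level of the negative controls there. Above the array's negative control median, the same values were 43.95 and 26.8 in WT, 3.78 and 7.65 in MI, and 12.3 and 12.5 in RQ. On that scale neither mutant overlapped WT. In the reference channel, net Cy5 was 51.8 and 42.8 on the WT arrays, 36 and 44 on the MI arrays and 35.3 and 41.9 on the RQ arrays. Before the correction MI thus overlapped WT there and both RQ arrays were below it. Above the Cy5 negative control median the values were 34.45 and 34.95 in WT, 24.3 and 32.1 in MI, and 23.95 and 26.25 in RQ. With that correction neither mutant overlapped WT in the reference channel either.

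For miR-501, net Cy3 was 81 and 59.8 on the WT arrays, 42.8 and 47.3 on the MI arrays, and 64.3 and 75 on the RQ arrays. Above the negative control median this was 46.7 and 31.6 in WT, 5.03 and 4.83 in MI, and 10.3 and 14 in RQ. Again the MI arrays were below WT on both scales, and the RQ arrays were below WT only after the negative controls were taken into account. Before that correction, net Cy5 of miR-501 overlapped between the groups, at 39.4 and 27.9 in WT, 30.4 and 28.5 in MI, and 23.3 and 31.8 in RQ. Above the Cy5 negative control median it was 22.1 and 20.1 in WT, 18.7 and 16.6 in MI, and 12 and 16.2 in RQ. On that scale both mutants were below WT in the reference channel too.

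For miR-532, net Cy3 was 74.8 and 52 on the WT arrays, 40.9 and 43.9 on the MI arrays, and 60.4 and 63.8 on the RQ arrays. Above the negative control median it was 40.5 and 23.8 in WT, 3.13 and 1.4 in MI, and 6.38 and 2.75 in RQ, so the MI and RQ means were at most 6.38 units above the median negative control. Its net Cy5 was 33.6 and 25.4 in WT, 29.95 and 26.7 in MI, and 25.3 and 25.8 in RQ, which overlap. Above the Cy5 negative control median it was 16.3 and 17.6 in WT, 18.25 and 14.75 in MI, and 14 and 10.2 in RQ. There MI overlapped WT and both RQ arrays were below it. How far the differences in the reference channel bear on those in Cy3 was not tested. With Cy3 not well above background, the level of these 3 microRNAs in MI and RQ is known only as a bound. After loess and Aquantile normalization of the single channels, which is open to dye bias without a dye swap, bounds were taken from mean Cy3. Mean Cy3 in WT was at least 1.17-fold that of MI for miR-362, 1.2-fold for miR-501 and 1.13-fold for miR-532. Against RQ the bounds were at least 1.36-fold, 1.35-fold and 1.29-fold. These bounds carry no spread, rest on 1 normalization and need not hold for each array. For miR-532, WT replicate 2 read 6.448 on the log2 scale, beside 6.442 for the lowest probe above background on MI replicate 2. Between RQ and MI neither side was above background and no fold is given.

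miR-188 and miR-500 were well above background in both channels on all 6 arrays. For miR-188, net Cy3 was 1438 and 548 on the WT arrays, 1602 and 1445 on the MI arrays, and 2785 and 2439.5 on the RQ arrays. All 4 mutant arrays were above both WT arrays, and the WT arrays differed more from each other than the arrays of the other groups did. WT replicate 2 was also the dimmest in the reference channel, where miR-188 read 473 and 166 in WT, 440 and 406 in MI, and 611 and 538 in RQ. For miR-500, net Cy3 was 2597 and 1602 on the WT arrays, 2851 and 2588 on the MI arrays, and 3074 and 3135 on the RQ arrays. Its highest raw values were thus on the RQ arrays and its lowest on WT replicate 2. The reference channel of miR-500 read 792 and 421, then 766 and 593, then 634 and 746. Net Cy3 exceeded net Cy5 for both microRNAs on every array, the WT arrays included, where the labels name wild-type RNA in both channels, and no ratio is read here as a level against the reference.

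**Figure D2:**
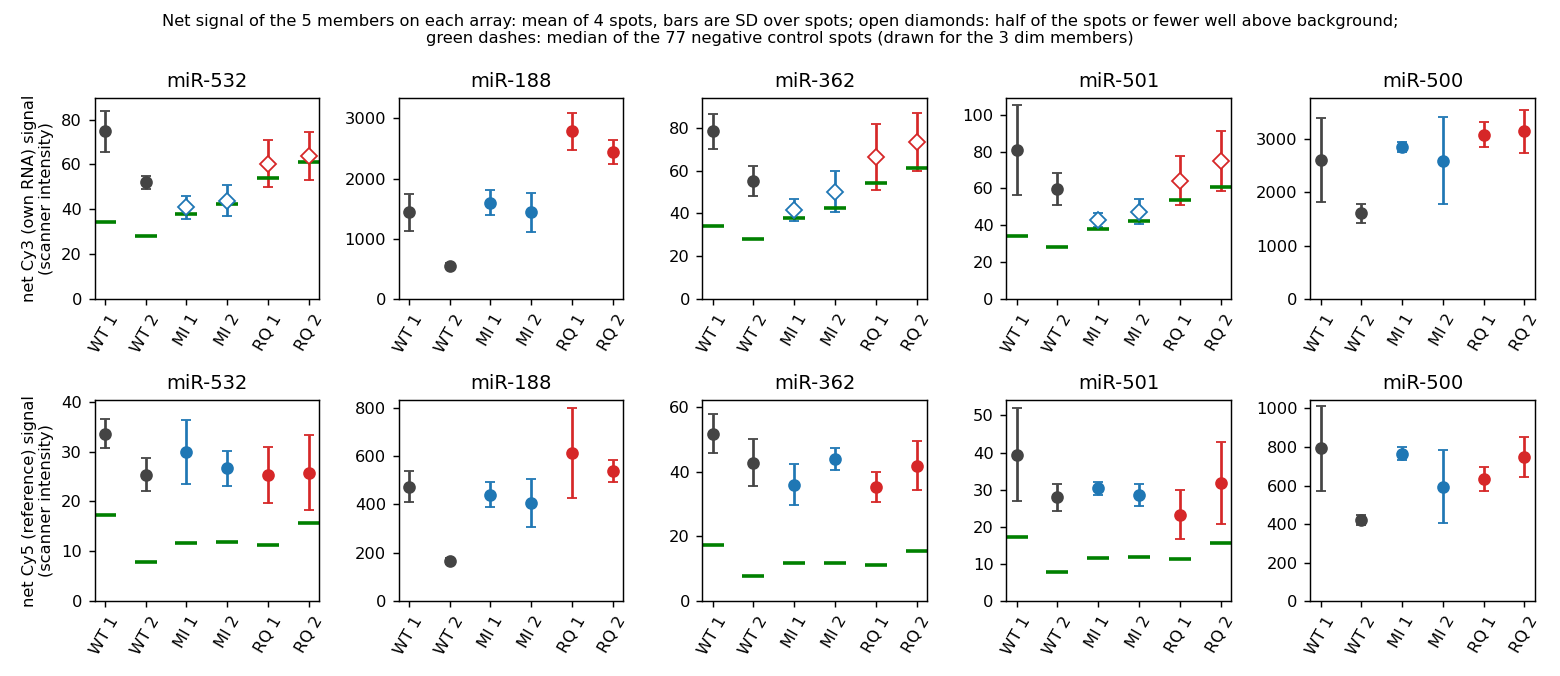
Net signal of each member on each array in scanner intensity units, Cy3 (the group's own RNA) above and Cy5 (reference) below; points are means of the 4 spots with the SD over spots, open diamonds mark probes with at most 0.5 of their spots above background, and green dashes give the median of the 77 negative control spots. For miR-532, miR-362 and miR-501 the MI and RQ points in Cy3 are open and lie close to the dashes, while the WT points stand above them.

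In MI against WT, the ratios of miR-501 and miR-532 were called lower, that of miR-362 had a change of the same sign that was not called, and the values of miR-188 were higher in MI without passing the test. Groups were compared on the log2 ratio of Cy3 over Cy5 after background correction and loess, with limma over all 294 tested microRNAs, and a change is called at a Benjamini-Hochberg adjusted p under 0.05. The log2 ratio of miR-501 was 0.22 and 0.14 on the WT arrays and -0.31 and -0.29 on the MI arrays, with no overlap. The fitted change was -0.48 ± 0.11 (SE, n = 2 arrays per group, limma adjusted p = 0.034). The ratio of miR-532 was 0.29 and 0.07 in WT and -0.34 and -0.32 in MI. The fitted change was -0.51 ± 0.12 (adjusted p = 0.0411). The ratio of miR-362 was 0.01 and -0.19 in WT and -0.43 and -0.52 in MI, a change of -0.38 ± 0.12 (adjusted p = 0.0779). The offset of 50 added to both channels pulls the ratios of dim probes toward 0, and Cy3 of these 3 was not above background on either MI array. The fitted values are therefore no measured sizes. The bounds on mean Cy3 above, which carry no spread, are given beside them (at least 1.2-fold for miR-501, 1.13-fold for miR-532 and 1.17-fold for miR-362).

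miR-188 had a log2 ratio of 1.78 and 1.21 in WT and 2.68 and 2.19 in MI. Its change was 0.94 ± 0.25 with a 95% interval from 0.33 to 1.54, the largest of the 5 by size, but its adjusted p was 0.056. The ratio of miR-500 was 2.49 and 2.76 in WT and 2.64 and 2.96 in MI, with overlapping groups and a change of 0.18 ± 0.16 (95% interval -0.21 to 0.57, adjusted p = 0.442). In all, 2 of 5 members were called in MI against WT, both lower, beside 46 of all 294 (15.6%; 27 higher, 9.18%, and 19 lower, 6.46%). Rises made up 58.7% of those calls, against 44.7% after median centring, 28.6% from the Cy3 channel by itself and 28.1% from processed signals. The median change of the members was -0.38, beside 0.11 over all tested. The groups did not overlap for 3 members on the low side and 1 on the high side, where 22.8% and 45.6% of all tested microRNAs did so. The calls of miR-501 and miR-532 were lost with loess fitted on bright probes (-0.37 and -0.40, adjusted p = 0.0754 for each), with the 2 groups fitted alone or without either RQ array (adjusted p = 0.0681 and 0.0777), without MI replicate 1 (0.201 and 0.217), without MI replicate 2 (0.124 and 0.131) and without WT replicate 1 (0.0891 and 0.102). miR-188 was called without WT replicate 1, at 1.22 (adjusted p = 0.0403).

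In RQ against WT, miR-500 fell and the other members were not called, although miR-362, miR-501 and miR-532 again had negative changes. The log2 ratio of miR-500 was 1.92 and 2.02 on the RQ arrays, below 2.49 and 2.76 in WT. It fell by 0.65 ± 0.16 on the log2 scale (95% interval -1.04 to -0.27, limma adjusted p = 0.0392). That fall is one of the ratio after loess, since the net Cy3 signal of miR-500 on the RQ arrays was above both WT values. Median centring gave 0.11 instead (adjusted p = 0.553) and the Cy3 channel by itself gave -0.17 (adjusted p = 0.452), so its direction is not settled by these arrays.

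The ratio of miR-532 on the RQ arrays was -0.20 and -0.21, a change of -0.38 ± 0.12 (adjusted p = 0.0718). That of miR-501 was -0.11 and -0.20, a change of -0.33 ± 0.11 (adjusted p = 0.0791). For miR-362 it was -0.38 and -0.43, a change of -0.31 ± 0.12 (adjusted p = 0.115). None of the 3 overlapped WT, and here too Cy3 was not above background on either RQ array, so these are no measured sizes. The bounds of miR-362 and miR-501, 0.44 and 0.43 on the log2 scale of the normalized Cy3 channel, exceeded these ratio changes in size. They carry no spread and are another measure. miR-188 read 1.98 and 2.17 on the RQ arrays, above both WT values, with a change of 0.58 ± 0.25 (95% interval -0.03 to 1.18, adjusted p = 0.145).

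Thus 1 of 5 members was called in RQ against WT, beside 63 of 294 (21.4%; 22 higher, 7.48%, and 41 lower, 13.9%), and the median change was -0.33 beside 0.03 over all tested. Rises made up 34.9% of those calls and 70.1% with median centring. The groups did not overlap for 4 members on the low side and 1 on the high side, as was so for 29.6% and 33% of all tested microRNAs. The dim members gained with some other scalings where miR-500 lost. After median centring miR-362, miR-501 and miR-532 were all called lower (-0.39, -0.43 and -0.50, limma adjusted p = 0.0323, 0.0176 and 0.0128). They were also called lower from the Cy3 channel by itself (-0.48, -0.47 and -0.49, adjusted p = 0.0286, 0.0233 and 0.0286). With loess fitted on bright probes, where miR-500 stayed called, their changes shrank to -0.14, -0.15 and -0.20 (adjusted p = 0.399, 0.331 and 0.243). miR-188 was called higher with median centring, at 0.47 (adjusted p = 0.0247). The call of miR-500 was lost without WT replicate 2 (-0.52, adjusted p = 0.0961), without RQ replicate 1 (-0.60, adjusted p = 0.212) and without RQ replicate 2 (-0.71, adjusted p = 0.106), while miR-532 was called without WT replicate 2 (-0.49, adjusted p = 0.0443).

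The RQ and MI arrays lie in 1 row of the slide, so this comparison is not tied to the row, but MI holds its columns 1 and 2 and RQ its columns 3 and 4, so slide column and group cannot be told apart here. Here miR-500 was the 1 member called. Its log2 ratio of 1.92 and 2.02 in RQ was below 2.64 and 2.96 in MI, and it fell by 0.83 ± 0.16 (95% interval -1.22 to -0.44, limma adjusted p = 0.0339). It ranked 17 from the lowest of 294. As against WT, the raw Cy3 signal did not follow the ratio, and median centring gave a change of -0.14 (adjusted p = 0.548) and the Cy3 channel by itself one of -0.20 (adjusted p = 0.494). The call was also lost without MI replicate 1 (-0.99, adjusted p = 0.0686), MI replicate 2 (-0.67, adjusted p = 0.162), RQ replicate 1 (-0.78, adjusted p = 0.176) or RQ replicate 2 (-0.88, adjusted p = 0.118).

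No other member was called between the mutants. The change was -0.36 ± 0.25 for miR-188 (95% interval -0.97 to 0.24, adjusted p = 0.404), with both RQ arrays below both MI arrays. The fitted change was 0.15 ± 0.11 for miR-501 (-0.11 to 0.41, adjusted p = 0.412), 0.13 ± 0.12 for miR-532 (-0.16 to 0.42, adjusted p = 0.529) and 0.07 ± 0.12 for miR-362 (-0.22 to 0.36, adjusted p = 0.738). A p that misses the threshold does not show that the mutants are alike. For the 3 dim members these ratios compare signals that were not well above background in Cy3 on either side. With 1 of 5 called, the count stands beside 32 of 294 (10.9%; 9 higher, 3.06%, and 23 lower, 7.82%), and the members' median change was 0.07 beside -0.10 over all tested. Rises made up 28.1% of those calls, 61.3% with median centring and between 40.7% and 41.7% with bright-probe loess, Cy3 alone or the processed signals. The groups did not overlap for 2 members on the low side and 3 on the high side, beside 44.9% and 20.1% of all tested.

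**Figure D3:**
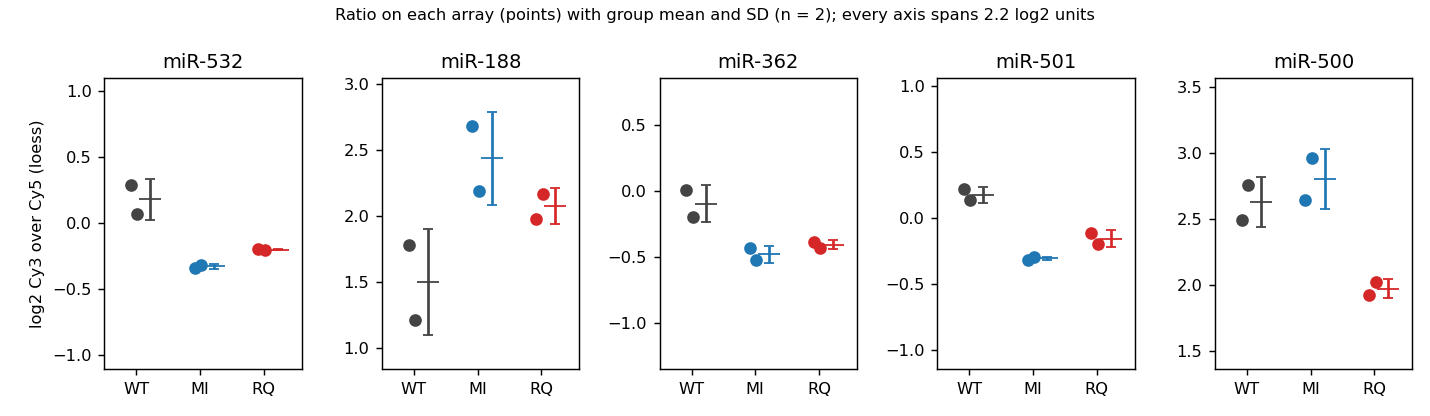
Log2 ratio of Cy3 over Cy5 after loess for each member, with a point per array and the group mean and SD beside it (n = 2 arrays per group); each axis spans the same range. WT is highest for miR-532, miR-362 and miR-501, lowest for miR-188, and for miR-500 the RQ arrays at 1.92 and 2.02 lie below the other 4.

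The order of the group means was thus different from member to member. For miR-532, WT was highest with a mean log2 ratio of 0.18 ± 0.16 (SD, n = 2 arrays), and likewise for miR-501 at 0.18 ± 0.06 and miR-362 at -0.09 ± 0.14. RQ and MI are given no order for these 3, since Cy3 was not above background in either. For miR-188 the order was MI at 2.44 ± 0.35, RQ at 2.07 ± 0.14 and WT at 1.5 ± 0.40, with no neighbours called apart. For miR-500 it was MI at 2.80 ± 0.23, WT at 2.63 ± 0.19 and RQ at 1.97 ± 0.07, where MI and WT did not differ beyond their spread.

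Across the 6 arrays the ratios of miR-362, miR-501 and miR-532 moved together, with Pearson correlations of 0.953 (miR-362 and miR-501), 0.979 (miR-362 and miR-532) and 0.976 (miR-501 and miR-532). miR-188 ran the other way, at -0.630 with miR-362, -0.830 with miR-501 and -0.726 with miR-532. miR-500 followed none of them, with correlations from -0.08 to 0.02. These are descriptions over 6 arrays in 3 groups, and all members share each array's labelling, background and loess curve. The dim probes also lie together at the low end of that curve.

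**Figure D4:**
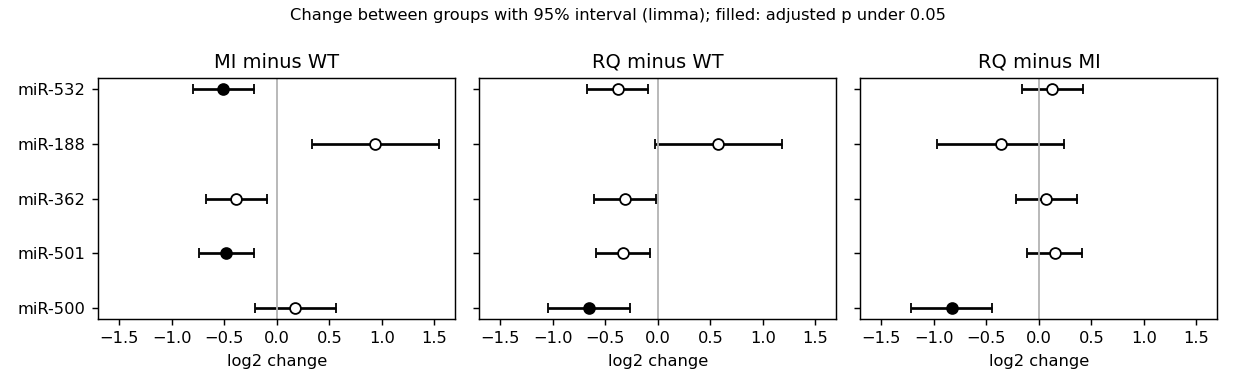
Change of each member in log2 ratio for the 3 comparisons, with 95% intervals from limma; filled points have an adjusted p under 0.05. Filled are miR-532 and miR-501 in MI minus WT and miR-500 in both comparisons of RQ.

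The direction of the 3 dim members against WT held over the alternatives that were run. In MI against WT, miR-362, miR-501 and miR-532 were negative in 15 of 15 alternatives and called in 3, 7 and 7 of them. In RQ against WT they were negative in 15 of 15 and called in 4, 3 and 5. The alternatives share the same arrays and are not independent, and many could not turn a sign. Dropping the filter, adding the replicate block or fitting the 2 groups alone returned the main estimate. So did leaving out an array of the group not compared. Leaving out an array of a compared group could not turn it either, since these groups did not overlap. Only the changes of scaling, offset and outlier spots could, and the same holds for the count of miR-188 below. The fitted values went from -0.51 for miR-532 in MI against WT to -1.28 with the scanner software's processed signals, and from -0.38 to -1.32 for miR-362 and from -0.48 to -1.52 for miR-501. The processed signals moved the median of all tested microRNAs by -0.16 in that comparison and by -0.30 in RQ against WT, and Cy3 alone by -0.11 and -0.13, so part of each such value is a shift of all probes. In RQ against MI, median centring moved the median by 0.16. miR-188 in MI against WT was positive in 15 of 15 alternatives and called in 3.

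**Figure D5:**
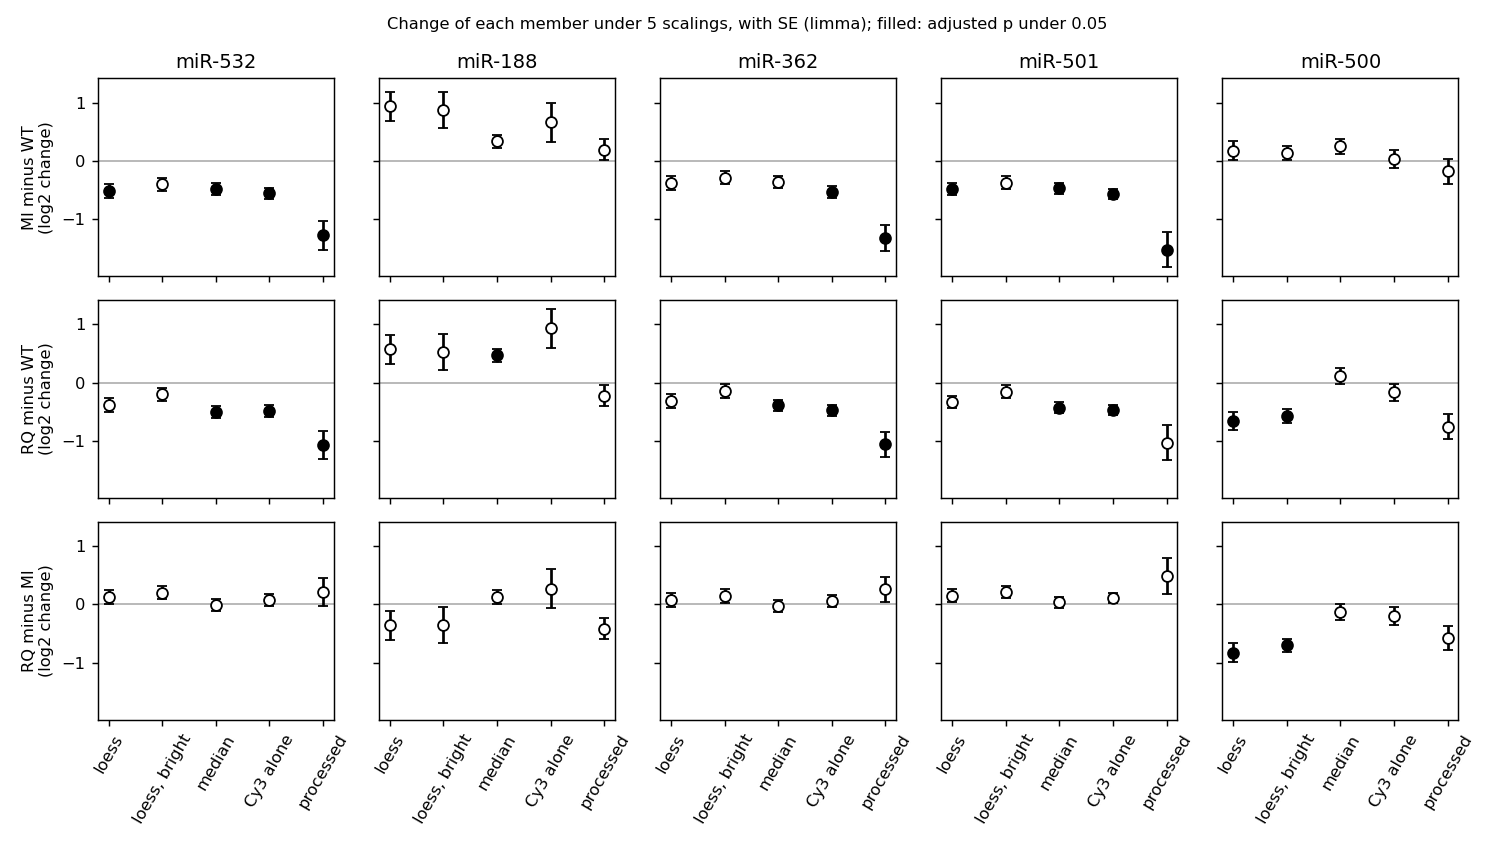
Change of each member (columns) in each comparison (rows) under 5 scalings, in log2 units with the SE from limma; filled points have an adjusted p under 0.05. miR-532, miR-362 and miR-501 stay below 0 against WT under all 5, whereas miR-500 is called with both loess fits in the comparisons of RQ and with none of the other three.

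Which microRNAs outside the cluster lay nearest to its mean pattern changed with the scaling. After loess, the nearest by root mean square distance over the 6 arrays, on log2 ratios centred on each probe's own mean, were miR-301b (0.0439), miR-186 (0.0501), miR-377 (0.0602), miR-495 (0.0634) and miR-137 (0.0665). The members themselves lay farther from their own mean, from 0.143 for miR-362 and 0.187 for miR-501 to 0.319 for miR-500 and 0.466 for miR-188, because their opposite patterns leave a nearly flat mean. With median centring or Cy3 alone, 0 of these 5 neighbours stayed on the list.

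Seeds were compared among probes and arms with a mature entry, so the arm that the miR-532 probe matches was not searched. miR-329 shares its seed with the unmeasured 3p arm of miR-362 and was the 1 such probe outside the cluster to share a seed with it.
miR-362-3p: aACACACCuguucaaggauuca
miR-329 was above background in Cy3 on all 6 arrays. Its change was -0.47 in RQ against WT (limma adjusted p = 0.0869), -0.19 in MI against WT (adjusted p = 0.392) and -0.28 in RQ against MI (adjusted p = 0.326). None of these passed.

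The cluster was set beside 21 other tested microRNAs whose names match 1 gene on chromosome X. Of these, 3 rose and 0 fell in RQ against WT (14.3%, beside 21.4% of all tested), with a median change of 0.14: miR-652 by 1.71 (limma adjusted p = 0.0112), miR-672 by 0.98 (adjusted p = 0.00991) and miR-361 by 0.85 (adjusted p = 0.0472). In MI against WT, miR-672 rose by 0.73 (adjusted p = 0.0291), 1 of 21 (4.76%, beside 15.6% of all tested), and the median was 0.13. In RQ against MI, miR-652 rose by 1.77 (adjusted p = 0.0237), again 1 of 21 (4.76%, beside 10.9%), and the median was 0.01. The cluster's own medians, given above, were -0.33, -0.38 and 0.07 in the same order, and whether the cluster differs from the other X-linked microRNAs was not tested.

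Raw marker signals also differed between the groups, on arrays that differed in brightness as a whole. The median net Cy3 of the tested microRNAs was 245 and 192 on the WT arrays, 177 and 223 on the MI arrays, and 298 and 296 on the RQ arrays. Summed net Cy3 of the 5 muscle and heart markers was 1226 to 1242 in WT, 1988 to 2719 in MI and 2456 to 3340.4 in RQ, with 2 of the 5 probes above background on all arrays and 2 on none. For the 5 markers of mesenchyme and fibroblast feeders, all above background throughout, it was 1967 to 2870 in WT, 2555 to 3597 in MI and 3887 to 4357 in RQ. Neural (997 to 1053 in WT, 1518 to 1647 in RQ), blood (1079 to 1115, then 1290.5 to 1340) and liver markers (297 to 311, then 552 to 567) were brighter on the RQ arrays too.

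On the ratio scale the markers did not all follow these sums. Those named here were chosen after their values were seen, and not every called marker is named. In RQ against WT, miR-21 fell by 1.35 (limma adjusted p = 0.0112) and miR-145 by 0.68 (adjusted p = 0.0472) among the mesenchymal markers. The others of that list had positive changes and were not called: miR-143 (0.33), miR-214 (0.13) and miR-199a (0.01). Among the muscle and heart markers, miR-1 fell by 1.03 (adjusted p = 0.0471). The rest of these were not called, with miR-206 at 0.77, miR-133a* at 0.13, miR-208 at 0.08 and miR-133b at -0.02. In MI against WT, miR-206 of skeletal muscle rose by 1.49 (adjusted p = 0.034) and miR-214 of mesenchyme by 0.72 (adjusted p = 0.0137). There miR-1 was at -0.27 and was not called. The sum of the 5 epithelial markers was 1575 to 2303 in WT, 849.5 to 977.5 in MI and 1544 to 1642 in RQ. On the ratio scale miR-200a fell by 1.44 in RQ against WT (limma adjusted p = 0.00808). The others of that list were not called there: miR-200b (-0.23), miR-200c (-0.12), miR-141 (-0.07) and miR-429 (-0.03). The 12 stem cell probes summed to 52561 to 89184 in WT, a range that held or overlapped those of MI (52726 to 67018) and RQ (71650 to 74813), while MI lay below RQ. Ratios of miR-294 (-1.51), miR-295 (-1.16) and miR-302d (-0.54) were called lower in RQ against WT (limma adjusted p = 0.00808, 0.0486 and 0.0256). There miR-302c* (0.54), miR-292-5p (0.28) and miR-367 (0.09) had positive changes and were not called. For MI against WT, miR-302d (-1.61) and miR-367 (-0.79) were called lower (adjusted p = 0.0028 and 0.00604). The part of these differences in the values of the cluster was not tested, and in whole embryoid bodies fewer cells of a type and less of a microRNA per cell cannot be told apart.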

How the data were processed

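The deposited scanner files give mean and local background intensity per spot and dye, and the authors' processed intensity, made per the file headers with version 9.5.1.1 of Agilent Feature Extraction. The deposited log10 ratio, per the file headers, is Cy5 over Cy3, and the deposited value table equalled its negative. Files listed 1932 features, 1336 of them mouse microRNA spots. Of the other features, the 77 negative control spots gave the control levels. The rest entered only the background correction and the Aquantile step. Flags (a score of 0 or 1 per spot, per the file headers) mark outliers, saturation and signal above background.

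Intensities were corrected with normexp (offset 50) and loess within arrays in limma 3.58.1 (R 4.3.3), with control and outlier spots given no weight; outlier spots (60 to 99 per array) were removed and the 4 spots of a probe averaged. Tests covered probes with over 0.5 of their spots above background, in Cy3 or Cy5, on 2 arrays or more. lmFit and eBayes ran on all 6 arrays (3 residual and 2.99 prior degrees of freedom), with Benjamini-Hochberg adjustment over 294 probes. Scaling, offset, filter, block and left-out arrays were varied. By the naming rule, the members, the 5 nearest patterns, seed sharers and called X-linked microRNAs were named, with up to 6 of the last per comparison. Symbols matched RefSeq genes for 279 probes with 1 gene, 39 with several and 16 with none. Members and lists were chosen with earlier results of these data known.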

Additional observations from a re-analysis of the deposited data

How the results depend on the processing

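The members' changes and the counts of calls were recomputed with 1 choice changed at a time, and the nearest patterns under 2 scalings; the X-linked calls, miR-329, the correlations, the bounds and the marker sums were not. In RQ against WT, where 1 member was called, 4 were called with median centring or an offset of 16, 3 from Cy3 alone and 2 from processed signals; leaving out 1 array gave 0 to 1. In MI against WT, where 2 were called, 0 were called with loess on bright probes or with the 2 groups alone, 4 with the offset of 16 and 1 with the replicate block; leaving out 1 array gave 0 to 2. In RQ against MI, where 1 was called, 0 were called with median centring, Cy3 alone, processed signals or the outlier spots kept, where miR-500 was at -0.79 (limma adjusted p = 0.0563); leaving out 1 array gave 0 to 1. Over all microRNAs, leaving out 1 array moved the 63 calls of RQ against WT to between 5 and 60, the 46 of MI against WT to between 6 and 63 and the 32 of RQ against MI to between 0 and 48. The 2 groups alone gave 27 in MI against WT, and keeping outlier spots gave 14 in RQ against MI.

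Signs turned for miR-500 in RQ against WT with median centring (0.11) and in MI against WT with the processed signals (-0.18), for miR-188 in RQ against WT with the processed signals (-0.22) and in RQ against MI after median centring (0.13) and from Cy3 alone (0.27), and in RQ against MI with median centring for miR-362 (-0.024) and miR-532 (-0.016). The cause was not tested.

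Same-numbered arrays deviated together with correlations of 0.182 (WT and MI), 0.119 (WT and RQ) and 0.0406 (MI and RQ), so the numbers were not taken to pair the arrays. With the replicate block, 59, 39 and 38 microRNAs were called in RQ against WT, MI against WT and RQ against MI. In MI against WT the block gave miR-188 at 0.94 (adjusted p = 0.0443), and miR-501 and miR-532 were no longer called (adjusted p = 0.0545 and 0.0563). Where leaving out an array left 1 in its group, that array is taken to vary like the others. With Cy3 of miR-362, miR-501 and miR-532 near the negative controls in MI and RQ, signal over background limits these members to bounds.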
